A study of Mus musculus with 24 samples.

Results

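Interferon-stimulated genes (ISGs) were examined in 4 tissues of Rap1 knockin and wild-type mice. The list held 35 genes of 8 role groups, chosen by symbol, and 33 of them matched a probe among the 21370 named genes on the array. The other two, the antiviral GTPases Mx1 and Mx2, were not analysed here. RNA from 6 female mice (liver, brain, heart and skeletal muscle of each) had been hybridised to 24 one-colour Agilent arrays. The mice labelled RAP1 MUT carried a CRISPR/Cas9-made I312R change in RAP1, the telomere protein encoded by Terf2ip, at the residue through which it binds TRF2, and are called KI below. The paper describes the KI/KI mice as homozygous and the WT controls as littermates. The line had been backcrossed 4 times to mice named C57BL6 in the labels and C57BL/6N in the study's methods. Mice A and B (KI) and D and E (WT) were 15 months old, and mice C (KI) and F (WT) were 14 months old. Each mouse gave all 4 tissues, so every genotype and tissue had 3 arrays, each from a separate animal. The allele was constitutive and present in every cell type, and only females of a narrow age range were measured. In whole organs, fewer cells of a type and less RNA per cell cannot be told apart.

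Type I interferons bind the IFNAR receptor, and the JAK kinases on its tails phosphorylate STAT proteins such as STAT2, which acts with IRF9 in the factor ISGF3. ISGF3 binds the interferon-stimulated response element (ISRE) in the promoters of ISGs, while interferon gamma acts mainly through a different element, the GAS site. The proteins made from ISGs sense foreign nucleic acids, cleave or sequester viral RNA, block viral budding and attack intracellular vacuoles, and healthy tissues hold a low baseline of them.

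Promoter sequence joins many of the members. RefSeq promoter windows (GRCm38.p6, 250 bases before to 50 bases after each gene's start) were at hand for 26 of the 33 measured members, in 30 windows, and for 32851 windows in all. The ISRE core, taken as GAAA, any 2 bases and GAAA and searched on both strands, occurred in 17 of the 30 member windows (56.7%) against 3.44% of all windows. The 16 genes with such a window were Ifit1, Ifit3, Isg15, Oas1a, Oas3, Stat2, Ifih1, Ddx58, Eif2ak2, Gbp2, Gbp3, Igtp, Irgm1, Rsad2, Bst2 and Trim30a. The GAS core TTCNNNGAA, which reads the same on both strands, occurred in 20% of the member windows and in 8.3% of all windows, and its genes were Ifit2, Oas1a, Eif2ak2, Igtp, Bst2 and Ifi35. Iigp1, Dhx58, Rtp4, Parp14, Oas2, Usp18 and Zbp1 had no window. A match is a description of letters and neither a site nor a cause, and windows of related genes are not independent. The 150 bases before the start are shown, 5′ to 3′ on the gene's strand, for 8 members whose values are described below. Capitals mark the ISRE core on either strand, and overlapping matches run together.
Oas1a, chr5:120907526-120907675, minus strand: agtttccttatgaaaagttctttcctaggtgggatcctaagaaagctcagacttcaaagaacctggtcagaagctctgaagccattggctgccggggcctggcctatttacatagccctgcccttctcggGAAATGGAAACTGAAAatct
Oas3, chr5:120777660-120777809, minus strand: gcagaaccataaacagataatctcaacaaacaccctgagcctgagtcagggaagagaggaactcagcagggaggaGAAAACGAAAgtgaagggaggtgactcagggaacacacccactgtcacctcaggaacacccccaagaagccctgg
Gbp3, chr3:142559894-142560043, plus strand: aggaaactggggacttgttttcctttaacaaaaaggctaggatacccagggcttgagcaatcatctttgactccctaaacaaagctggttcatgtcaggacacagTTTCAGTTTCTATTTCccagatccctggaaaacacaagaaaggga
Isg15, chr4:156200819-156200968, minus strand: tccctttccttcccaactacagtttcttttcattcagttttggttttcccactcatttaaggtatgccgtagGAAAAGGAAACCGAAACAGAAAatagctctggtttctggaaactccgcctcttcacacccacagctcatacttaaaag
Ifit1, chr19:34640739-34640888, plus strand: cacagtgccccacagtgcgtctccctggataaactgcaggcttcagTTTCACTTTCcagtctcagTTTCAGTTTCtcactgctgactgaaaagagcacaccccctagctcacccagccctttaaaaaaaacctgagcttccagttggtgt
Rsad2, chr12:26456453-26456602, minus strand: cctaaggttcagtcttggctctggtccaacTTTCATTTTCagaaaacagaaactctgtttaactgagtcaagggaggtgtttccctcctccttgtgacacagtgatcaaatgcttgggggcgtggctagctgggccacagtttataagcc
Bst2, chr8:71537473-71537622, minus strand: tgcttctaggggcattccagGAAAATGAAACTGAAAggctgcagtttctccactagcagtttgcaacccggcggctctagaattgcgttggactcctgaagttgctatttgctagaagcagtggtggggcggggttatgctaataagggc
Ifi44, chr3:151749911-151750060, minus strand: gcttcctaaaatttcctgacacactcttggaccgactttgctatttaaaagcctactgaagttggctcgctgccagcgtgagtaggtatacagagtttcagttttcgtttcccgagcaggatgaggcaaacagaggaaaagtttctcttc
The Oas1a, Gbp3, Isg15 and Bst2 stretches held overlapping copies of the core in 1 run, whereas Ifit1 held its 2 copies apart, beginning 104 and 85 bases before the start. The copies in Oas1a began 20 bases before the start and those in Bst2 130 bases before it. Ifi44 is shown as a member whose stretch had no exact match to these letters.

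Levels below are log2 processed signal minus the array's 75th percentile, so 0 is the brightness of an array's upper-quartile probe. Each gene was read from 1 probe, and levels are compared between samples and not between genes. Tests were limma fits across all genes with Benjamini-Hochberg adjustment and a threshold of 0.05, over genes that were well above background in all 3 mice of either genotype. Apart from Oas3, Herc6 and Irf7, the measured members were well above background on all 24 arrays. Oas3 was well above background on 5 of 6 liver, 2 of 6 heart, and no brain or muscle arrays, Herc6 on 3 of 6 muscle arrays, and Irf7 on 2 of 6.

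Terf2ip was measured in every group. KI minus WT was -0.33 in liver, -0.12 in brain, -0.15 in heart and -0.07 for muscle on the log2 scale, and none of these differences passed the threshold (limma, adjusted p = 0.523 in liver). In the mean over tissues the difference was -0.17, with all KI mice below all WT mice, as for 4.05% of all genes. The change of 1 residue need not alter the transcript's level, so the probe does not check the genotype labels. Marker lists were high in the tissue that each names: hepatocyte genes averaged 8.68 to 9.51 in the 6 livers, neuronal genes 5.29 to 5.63 in the brains, cardiomyocyte genes 5.75 to 8.27 in the hearts and skeletal fibre genes 9.51 to 10.04 in the muscles. Some arrays stood apart in markers of another tissue. Brain of KI mouse C averaged 4.90 for hepatocyte genes, where the other 5 brains lay between -2.86 and -1.17. Liver of the same mouse averaged 1.33 for skeletal fibre genes, where the other livers lay between -5.14 and -4.44. Muscle of KI mouse B averaged -1.75 for mammary epithelium genes, where the other muscles lay between -5.23 and -4.78. Values without these arrays are given with the results they touch.

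The members' levels differed far more between tissues than between genotypes. Over all 24 arrays the level differed between tissues for 33 of 33 members (F-test in limma, largest adjusted p = 1.02e-05), where 97.7% of all 17299 genes tested did. Liver was the highest tissue for 24 members, heart for 7, brain for 1 (Cmpk2) and muscle for 1 (Ifit3), and brain was the lowest for 25 and muscle for 8. The order liver, heart, muscle, brain held for 18 members, and 2 further orders, with heart first or with muscle last, held for 5 each. Oas3 is counted among the 25 and the 18, although its brain and muscle signal was not well above background. Slide 1 held the livers with brains A and D, slide 2 the other brains with hearts A, B, D and E, and slide 3 hearts C and F with the muscles. Liver and brain shared one RNA kit, and heart and muscle shared another, made for fibrous tissue. Within slide 1 and its kit, 31 of 33 members were higher in liver than in brain, with a median difference of 3.08. Within slide 3 and its kit, 29 members were higher in heart than in muscle (median 1.30). Within slide 2, where the kits differed, 32 members were lower in brain than in heart (median -1.83). Liver shared no slide and no kit with heart or muscle, nor did brain with muscle, so tissue, slide and kit cannot be told apart for those pairs.

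**Figure D1:**
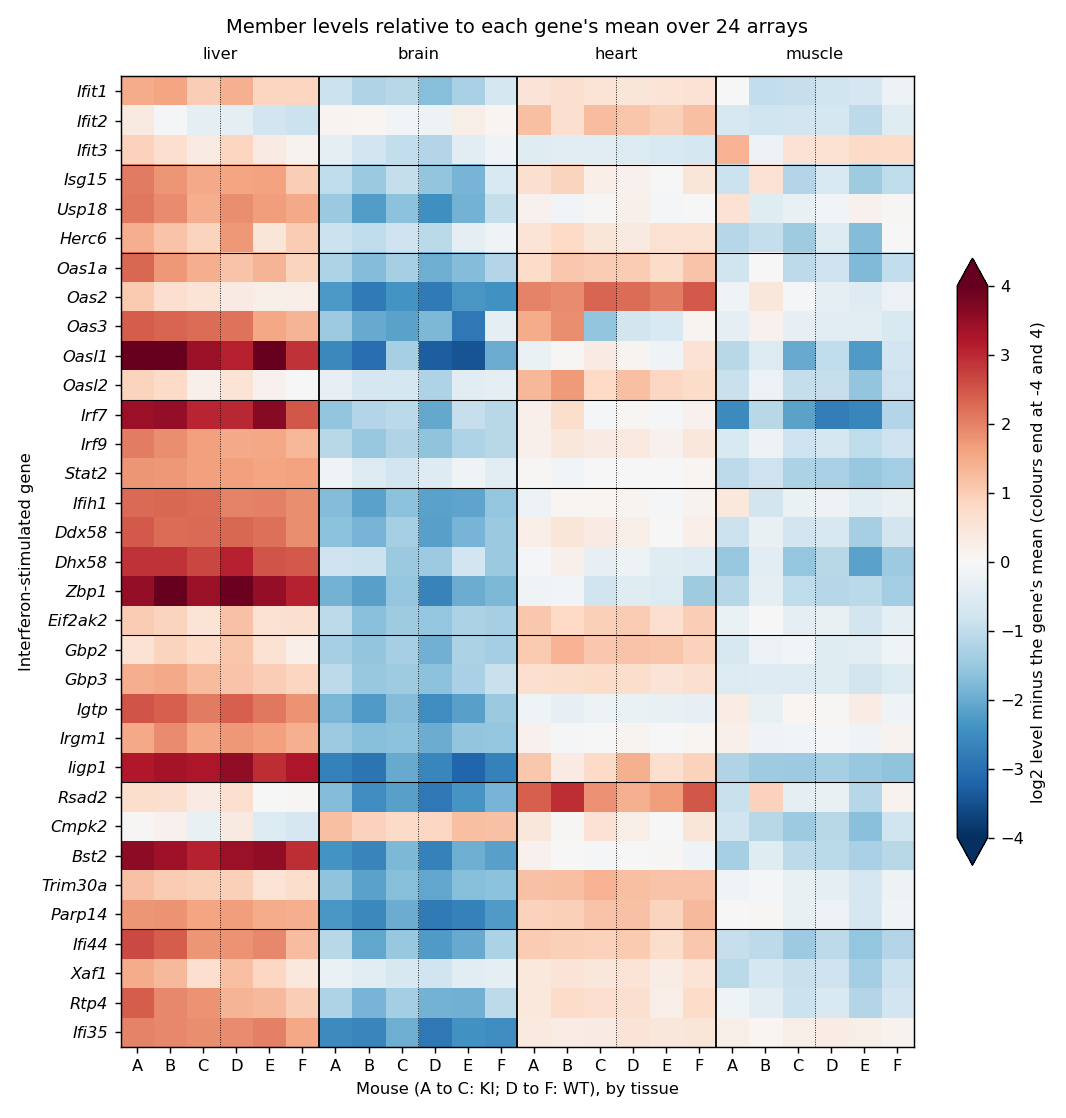
Level of each of 33 interferon-stimulated genes (rows, in role groups separated by lines) on each of 24 arrays (columns, mice A to C KI and D to F WT within each tissue), as log2 difference from the gene's own mean over the arrays. The liver columns are above the gene's mean for most rows and the brain columns below it, while KI and WT columns of a tissue differ little beside that.

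Pair by pair, 31 members were higher in liver than in brain and 2 lower, with a median difference of 3.02 in log2 level, where 46.6% of all genes were higher and 38% lower with a median of 0.23. Against muscle, liver was higher for 32 members and lower for 0 (median 2.09), beside 35.8% and 43.1% of all genes (median -0.19). Against heart, liver was higher for 24 and lower for 7 (median 1.08), beside 35.4% and 38.6% (median -0.04). Heart in turn exceeded brain for 31 members and was below it for 1, and the brain minus heart median was -1.85. Among all genes 34.7% were higher in brain and 44.5% lower. Muscle exceeded brain for 24 members and was below it for 5, with a brain minus muscle median of -0.99, beside 46.8% of all genes lower in brain and 35.4% higher. Oas3 is counted among the 24, although no brain or muscle array was well above background for it. On z-score values the brain minus muscle counts were 17 lower and 8 higher, with a median of -0.44. Heart exceeded muscle for 25 and was below it for 1 (median 1.24), beside 29.8% higher and 34.6% lower among all genes. Neighbouring tissues were not separated by limma for some members, heart and muscle for Usp18, Oas3, Ifih1, Zbp1, Igtp, Irgm1 and Ifi35, brain and muscle for Isg15, Herc6, Oasl2 and Dhx58, and liver and heart for Herc6 and Eif2ak2. The 2 members lower in liver than in brain were Ifit2 and Cmpk2, a mitochondrial nucleotide kinase, which measured 0.85 ± 0.20 (SD, n = 6) in brain and -0.32 ± 0.42 in liver.

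The IFIT proteins bind viral RNA and hold back its translation. Ifit1 ranged from 0.21 to 0.95 (median 0.57) in liver, from -0.15 to 0.01 (median -0.09) in heart, from -1.61 to -0.63 (median -1.38) in muscle and from -2.35 to -1.34 (median -1.79) in brain. Liver did not overlap any other tissue, and the neighbours heart and muscle differed by 1.15 ± 0.19 (SE). Ifit2 had another order, from -0.59 to -0.01 (median -0.08) in heart, -1.42 to -0.99 (median -1.14) in brain, -2.10 to -0.87 (median -1.61) in liver and -2.28 to -1.71 (median -1.95) in muscle. Heart stood above all other arrays for Ifit2, while brain, liver and muscle overlapped in part. Ifit3 was the member highest in muscle, at 2.54 ± 0.53 (SD, n = 6), and did not differ there from liver, at 2.45 ± 0.32 (limma, adjusted p = 0.70).

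ISG15 is a ubiquitin-like protein attached to targets by ligases such as Herc6 and removed by Usp18, which also dampens signalling at the type I receptor. Isg15 ranged from 3.55 to 4.63 (median 4.14) in liver, 2.54 to 3.44 (median 2.94) in heart, 1.12 to 3.12 (median 1.62) in muscle and 0.70 to 1.95 (median 1.30) in brain. Liver lay above all other arrays, and muscle and brain overlapped and were not separated by limma (adjusted p = 0.094). Usp18 ranged from 1.35 to 2.0 (median 1.65) in liver, -0.22 to 0.08 (median -0.11) in heart, -0.58 to 0.48 (median -0.16) in muscle and -2.56 to -1.07 (median -1.87) in brain. Heart and muscle were not distinguished for Usp18, with a difference of 0.05 ± 0.22 (SE).

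The OAS enzymes make short oligoadenylates on double-stranded RNA, which switch on RNase L, while Oasl1 lacks that activity and restrains the translation of Irf7. Oasl1 had the widest spread of tissue means of the 33, at 6.42. It ranged from 2.93 to 5.09 (median 3.82) in liver, -0.24 to 0.60 (median 0.12) in heart, -2.24 to -0.52 (median -1.04) in muscle and -3.41 to -1.28 (median -2.78) in brain. Livers were the highest 6 arrays, and the muscle and brain ranges overlapped. Oas2 instead was highest in heart, at 2.09 to 2.62 (median 2.32), followed by liver at 0.42 to 1.25 (median 0.61), muscle at -0.32 to 0.64 (median -0.02) and brain at -2.64 to -2.11 (median -2.22). Hearts and brains were each apart from all other arrays for Oas2, and heart exceeded brain by 4.67 ± 0.14 (SE). Oas3 was not well above background in brain or muscle, so only bounds apply. Liver was at least 5.44-fold above brain and at least 1.57-fold above muscle, taking for each dim array the lowest signal that was well above background.

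Among the transcription factors, Irf7 drives the interferon genes themselves and Irf9 is the DNA-binding part of ISGF3. Irf7 ranged from 0.17 to 1.30 (median 0.92) in liver, -2.41 to -1.62 (median -2.20) in heart, -4.39 to -3.26 (median -3.47) in brain and -5.08 to -3.43 (median -4.67) in muscle. Liver and heart were apart from each other and from the remaining arrays, and brain and muscle overlapped. Irf9 ranged from 3.32 to 4.02 (median 3.59) in liver, 2.17 to 2.44 (median 2.36) in heart, 0.96 to 1.80 (median 1.23) in muscle and 0.37 to 0.89 (median 0.76) in brain. All 4 tissues were apart for Irf9, and its liver to brain difference was 2.96 ± 0.12 (SE).

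Ifih1 (MDA5), Ddx58 (RIG-I) and Dhx58 (LGP2) are cytosolic sensors of double-stranded RNA, Eif2ak2 (PKR) stops translation on binding it, and Zbp1 recognises nucleic acid in the Z form. Zbp1 ranged from 1.72 to 2.86 (median 2.17) in liver, -2.75 to -1.45 (median -1.85) in heart, -2.74 to -1.71 (median -2.45) in muscle and -4.01 to -2.89 (median -3.27) in brain. Liver exceeded heart, the next tissue, by 4.19 ± 0.22 (SE), and heart and muscle were not separated (limma, adjusted p = 0.094). Dhx58 ranged from 1.01 to 1.68 (median 1.33) in liver, -1.95 to -1.25 (median -1.71) in heart, -2.93 to -2.22 (median -2.61) in brain and -3.59 to -1.91 (median -2.93) in muscle. Here too liver stood alone, and brain and muscle did not differ beyond their spread. Eif2ak2 was the sensor highest in heart, where its mean exceeded liver by 0.11, within the spread (limma, adjusted p = 0.50).

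The immunity-related GTPases Iigp1 and Igtp are recruited to vacuoles that hold intracellular pathogens, and are strongly induced by interferon gamma. Iigp1 ranged from 4.28 to 4.86 (median 4.55) in liver, 1.66 to 2.73 (median 2.15) in heart, -0.30 to 0.11 (median -0.13) in muscle and -1.87 to -0.71 (median -1.39) in brain. The 4 tissues did not overlap, and liver exceeded brain by 5.94 ± 0.17 (SE). Igtp ranged from 4.42 to 5.13 (median 4.86) in liver, 2.33 to 2.90 (median 2.67) in muscle, 2.27 to 2.45 (median 2.33) in heart and 0.14 to 1.14 (median 0.61) in brain. Muscle and heart overlapped for Igtp and were not separated (limma, adjusted p = 0.11).

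Of the other effectors, Bst2 (tetherin) holds budding virus at the membrane and Rsad2 (viperin) makes a chain-terminating nucleotide. Bst2 ranged from 5.97 to 6.60 (median 6.42) in liver, 2.84 to 3.19 (median 3.00) in heart, 1.68 to 2.51 (median 1.92) in muscle and 0.32 to 1.23 (median 0.73) in brain. All 4 tissues were apart for Bst2. Rsad2 was highest in heart, at 0.98 to 2.5 (median 1.67), with liver at -0.43 to 0.26 (median 0.04), muscle at -1.57 to 0.47 (median -0.78) and brain at -3.29 to -2.16 (median -2.70). Heart and brain were each apart from all other arrays for Rsad2, and liver and muscle overlapped. Among the remaining ISGs, Ifi35 ranged from 2.49 to 2.95 (median 2.85) in liver, 1.24 to 1.47 (median 1.37) in heart, 1.01 to 1.24 (median 1.17) in muscle and -1.92 to -1.0 (median -1.56) in brain. Ifi44 ranged from -0.21 to 1.21 (median 0.43) in liver, -0.73 to -0.35 (median -0.45) in heart, -2.97 to -2.37 (median -2.55) in muscle and -3.70 to -2.56 (median -3.21) in brain. Heart and muscle met in range for Ifi35 and were not separated (limma, adjusted p = 0.11), while for Ifi44 they were apart.

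The comparison of KI with WT asked whether transcript levels in each tissue differed between mice whose RAP1 cannot bind TRF2 and WT mice. The paper also reports less RAP1 protein, and a larger part of it in the cytosol, in KI/KI embryonic fibroblasts and brain. Lost TRF2 binding, lower RAP1 amount and changed location cannot be told apart here. No member passed the threshold in any tissue, and neither did any other gene (0% of the 14092 genes tested for liver, 16073 for brain, 14931 for heart and 13517 for muscle). At an unadjusted p under 0.05, 1653 liver, 127 brain, 239 heart and 112 muscle genes differed in either direction. With 3 mice against 3, an exact two-sided permutation test of a single gene could not go below 0.1. The counts and values that follow therefore describe these 6 mice.

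In liver the KI mean was above the WT mean for 33 of 33 members, with a median difference of 0.29 and a range from 0.01 to 0.86, where 59.7% of all genes were higher and the median of all genes was 0.08. All 3 KI livers exceeded all 3 WT livers for 8 members, where 12.8% of all genes did so. The number was 6 with quantile values, and it was 17 without WT mouse D, 19 without KI mouse C and 19 without both 14-month mice, where fewer mice have to be apart. No share of all genes was computed with mice left out, here or for the other tissues below. Such counts therefore cannot be read as a rise. The same 8 had an unadjusted p under 0.05, where 7.76% of all genes had one in this direction, and the smallest adjusted p of a member was 0.364 (limma, Rtp4). By role, the median difference was 0.64 for the 5 OAS genes, 0.48 for the 4 remaining ISGs, 0.31 for the 3 IFIT genes, 0.29 for the 3 transcription factors, 0.27 for the 5 other antiviral effectors, 0.20 for the 5 sensors, 0.14 for the 3 genes of the ISG15 system and 0.06 for the 5 GBP and IRG GTPases.

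**Figure D2:**
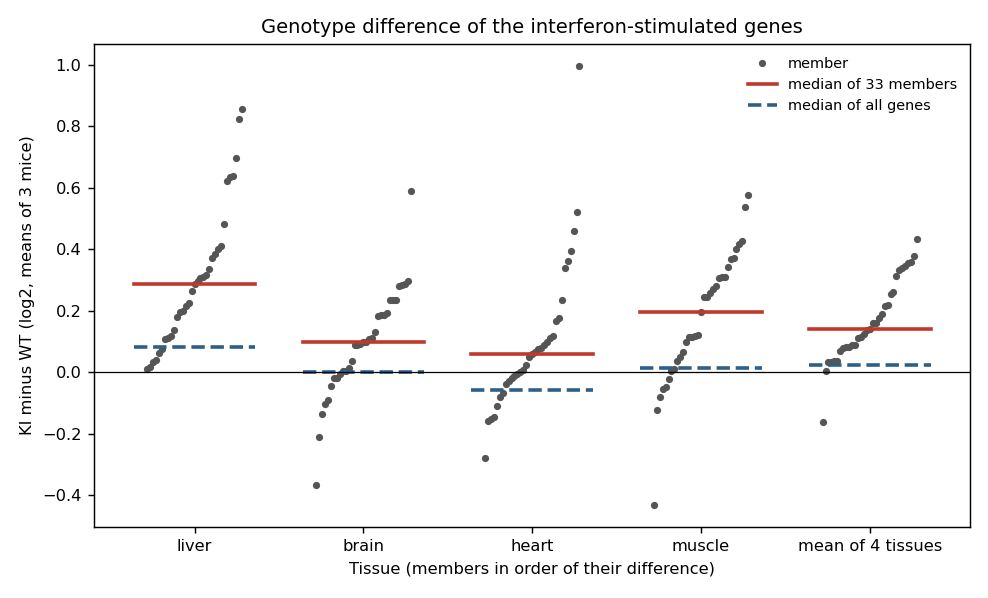
KI minus WT difference of log2 level (means of 3 mice each) for the 33 members, each a point, in the 4 tissues and in the mean over tissues, with the median of the members (solid line) and of all genes (dashed line). All liver points are above 0, and the highest heart point, Oas3, was well above background on only 2 of 6 heart arrays.

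Rtp4, a chaperone of membrane receptors, measured 4.32, 3.81 and 3.70 in KI livers A, B and C and 3.26, 3.21 and 2.89 in WT livers D, E and F. The KI values lay above all WT values, and the difference was 0.82 ± 0.20 (SE, unadjusted p = 0.0055 in limma). Gbp3, a guanylate-binding protein, measured 2.57, 2.63 and 2.39 in KI and 2.28, 2.10 and 1.98 in WT, a difference of 0.41 ± 0.14. Irf9 measured 4.02, 3.84 and 3.64 in KI and 3.52, 3.55 and 3.32 in WT, a difference of 0.37 ± 0.14. For Rtp4, Gbp3 and Irf9 the groups did not overlap, but the gap between the lowest KI and the highest WT liver was smaller than the range of the KI livers.

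The OAS genes whose Oas1a and Oas3 promoters are printed above were among the 8. Oas1a measured 2.91, 2.35 and 2.08 in KI livers and 1.76, 1.98 and 1.5 in WT livers, a difference of 0.70 ± 0.24. Oas2 measured 1.25, 0.85 and 0.72 in KI and 0.51, 0.42 and 0.45 in WT, a difference of 0.48 ± 0.16. Oas3 measured -3.22, -3.30 and -3.40 in KI and -3.47, -4.09 and -4.27 in WT, a difference of 0.64 ± 0.22, and WT liver E was not well above background. Oas3 was tested because all KI livers were well above background. Without it, 7 of 32 members had their groups apart, beside 12.9% of the genes well above background on all livers, and the median of the members was 0.28. KI mouse A was the highest liver for all of these OAS genes, and the WT values were close together for Oas2 only. Oasl1 had the largest liver difference, 0.86 ± 0.48, with 5.09, 4.23 and 3.48 in KI and 3.15, 4.16 and 2.93 in WT. Its groups overlapped, since WT mouse E exceeded KI mouse C.

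Ifit2 measured -0.87, -1.31 and -1.60 in KI livers and -1.62, -1.98 and -2.10 in WT livers, a difference of 0.64 ± 0.23. The groups did not overlap, but KI mouse C and WT mouse D all but met. Ifih1 measured 2.95, 2.97 and 2.90 in KI and 2.65, 2.68 and 2.54 in WT, a difference of 0.32 ± 0.11. Its groups were well apart on this probe, but its probes disagreed, and the mean over them gave -0.21. Of the 10 members with several probes, Ifih1, Herc6, Irgm1 and Iigp1 had probes that differed in the sign of the liver difference, and for 9 of the 10 all probes were highest in the same tissue (the exception was Xaf1). Differences near 0 were those of Eif2ak2 (0.01), Iigp1 (0.02), Bst2 (0.03) and Irgm1 (0.04).

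**Figure D3:**
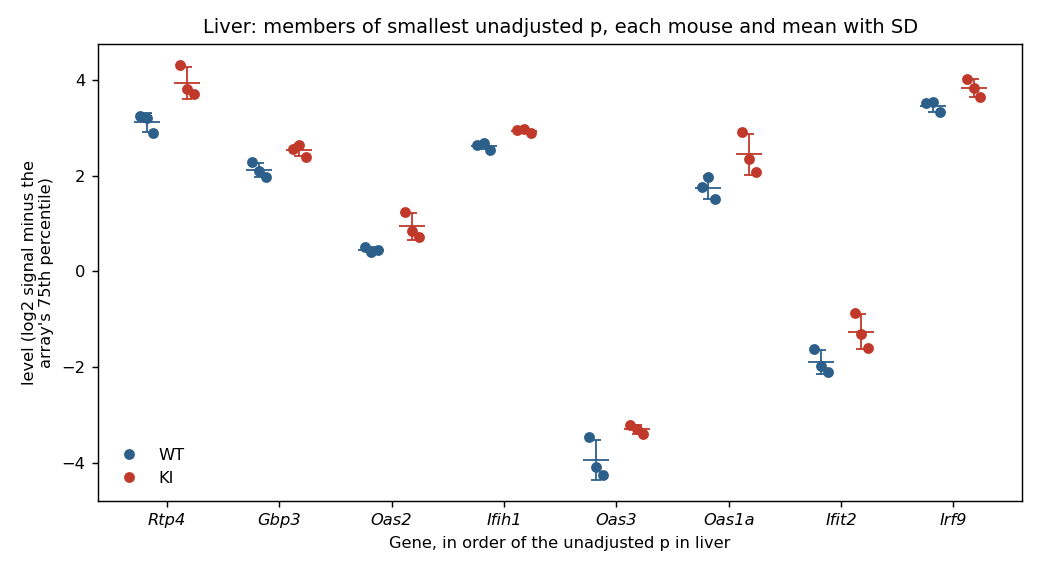
Level in each liver (log2 signal minus the array's 75th percentile) of the 8 members of smallest unadjusted p there, with each KI and WT mouse as a point and the group means with SD (n = 3). The points do not overlap between genotypes, and levels are not comparable between genes.

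Markers of macrophages and of some other cells were also higher in KI livers. The mean of 10 macrophage and Kupffer cell genes was 2.17, 2.41 and 2.52 in KI livers A, B and C and 1.89, 1.69 and 1.54 in WT livers D, E and F. All 10 genes had higher means in KI, 8 with an unadjusted p under 0.05 and none past the threshold, among them the Kupffer cell lectin Clec4f (0.49), the macrophage receptor Adgre1 (0.61) and the CSF1 receptor Csf1r (0.70). Among all genes 59.7% were higher in KI liver, and 7.76% of those tested had an unadjusted p under 0.05 in that direction. Cd163 was not well above background in any liver. Within the KI livers the marker mean was highest in mouse C, where the ISGs were lowest, with a mean level over the 33 members of 1.75 against 2.17 in the highest KI liver. Within the WT livers the orders were the same, with marker means of 1.89, 1.69 and 1.54 and ISG means of 1.92, 1.68 and 1.44 in mice D, E and F. The microglia list, whose genes other macrophages share, averaged 0.24 to 0.47 in KI livers and -0.18 to -0.09 in WT livers. Neutrophil genes were higher in KI liver for 6 of 6, 2 with an unadjusted p under 0.05, with overlapping ranges. Only 3 of these 6 were well above background on all livers. Hepatocyte genes were also higher in KI liver for 8 of 8, with a mean difference of 0.26 and overlapping ranges. No gene of the hepatocyte, T cell, B cell, natural killer cell, plasmacytoid dendritic cell or endothelial lists had an unadjusted p under 0.05. The part of these cells in the liver result was not tested.

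Liver values moved with single mice. The 14-month mice C and F had the lowest liver means of their genotypes. The median difference of the members was 0.24 without both of them, 0.13 without WT mouse F, 0.40 without WT mouse D and 0.36 without KI mouse C, whose liver carried the skeletal fibre genes. The lowest number of members higher in KI with a liver left out was 26.

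In brain the KI mean was higher for 24 members and lower for 9, the median difference was 0.10 against 0.0026 for all genes, and no member had its groups apart, where 1.42% of all genes had all KI brains above all WT brains. The number apart with KI higher was 6 without WT mouse F and 7 without both 14-month mice. Fewer mice have to be apart there, and no share of all genes was computed. No member had an unadjusted p under 0.05, where 0.429% of all genes had one with KI higher. The ISG15 ligase Herc6 measured -3.95, -4.10 and -3.91 in KI brains and -4.16, -3.46 and -3.22 in WT brains, a difference of -0.37 ± 0.25 (SE). Parp14, an ADP-ribosyltransferase, measured -0.92, -1.17 and -0.58 in KI and -1.42, -1.29 and -0.84 in WT, a difference of 0.30 ± 0.22. Oasl1 measured -2.55, -3.01 and -1.28 in KI and -3.26, -3.41 and -1.94 in WT, a difference of 0.59 ± 0.54. Groups overlapped for these 3, the members of smallest unadjusted p in brain. The sign of the median rested on single arrays and slides. It was 0.54 between mice A and D, which shared slide 1, and -0.15 between mice B and C and mice E and F on slide 2. It was -0.08 without WT mouse D, with 10 members higher, 0.25 without both 14-month mice, and 0.04 without KI mouse A or without KI mouse C, the brain with hepatocyte genes, whose macrophage list was at -0.51 where the other brains were at -1.69 or lower.

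In heart the KI mean was higher for 21 members and lower for 12, with a median of 0.06 against -0.06 for all genes. Ifit3 had all KI hearts above all WT hearts (1.43, 1.47 and 1.45 against 1.36, 1.30 and 1.20), where 1.89% of all genes did. Ifi35 had all KI hearts below all WT hearts (1.35, 1.24 and 1.26 against 1.47, 1.39 and 1.43), where 2.93% of all genes did. The differences were 0.17 ± 0.12 (SE) for Ifit3 and -0.15 ± 0.12 for Ifi35, close in size to the distance from heart to the nearest tissue. Brain minus heart was -0.11 for Ifit3, and heart minus muscle was 0.21 for Ifi35. Liver was farther off, with liver minus heart at 1.08 for Ifit3 and 1.46 for Ifi35. No member had an unadjusted p under 0.05 (0.904% of all genes with KI higher). Dhx58 measured -1.51, -1.25 and -1.78 in KI hearts and -1.65, -1.94 and -1.95 in WT hearts, a difference of 0.34 ± 0.18. Isg15 measured 3.21, 3.44 and 2.83 in KI and 2.72, 2.54 and 3.05 in WT, a difference of 0.39 ± 0.21. Zbp1 measured -1.50, -1.45 and -2.13 in KI and -1.81, -1.90 and -2.75 in WT, a difference of 0.46 ± 0.30. In all 3 genes mice A and B exceeded the WT mice of their age and mouse C overlapped with WT. Heart B, with the highest ISG mean (0.85), also had the highest means of the macrophage list (1.10, others up to 0.25), the microglia list (0.50, others up to -0.33), the T cell list (-1.23, others up to -2.15), the B cell list (-1.41, others up to -2.15) and the neutrophil list (-2.26, others up to -2.99). It was also highest for natural killer cell (-3.87, others up to -4.34), hepatocyte (-3.52, others up to -4.21) and neuronal genes (-1.48, others up to -2.16). Skeletal fibre genes (-1.49, others up to -1.84) and cardiomyocyte genes (8.27, with WT heart E at 7.67) were highest there too. The endothelial, plasmacytoid dendritic cell and mammary lists were not. Macrophage genes were higher in KI hearts for 9 of 10 and neutrophil genes for 6 of 6, beside 39.8% of all genes. Only 3 of the 6 neutrophil genes were well above background on all hearts. No macrophage or neutrophil gene had an unadjusted p under 0.05 in heart. Klra8 of the natural killer cell list had one, with KI lower (-0.91, unadjusted p = 0.037 in limma), beside 0.697% of all genes with KI lower. Without heart B the median of the members was 0.05. The part of these cells in the heart values was not tested. Oas3 was well above background in KI hearts A (-4.16) and B (-3.77) only, and not in KI heart C (-7.21) or the WT hearts (-6.37, -6.24 and -5.52). The median was 0.07 on slide 2, which held the 15-month hearts, -0.05 on slide 3, which held the 14-month hearts, and -0.0019 without WT mouse E. The number of members with all KI hearts above all WT hearts was 3 to 4 with quantile, z-score and deposited values, 7 without KI mouse C and 9 without both 14-month mice, and 3 or 4 without mouse A, B, D or F. With mice left out fewer have to be apart, and no share of all genes was computed for these settings.

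In muscle the KI mean was higher for 27 members and lower for 6, with a median of 0.20 against 0.02 for all genes. Oas2 and Stat2, a subunit of ISGF3, had all KI muscles above all WT muscles, where 2.27% of all genes did. Oas3 did too, but no muscle array was well above background for it and it was not tested. No member had an unadjusted p under 0.05 (0.407% of all genes with KI higher). Oas2 measured 0.00, 0.64 and 0.11 in KI muscles and -0.16, -0.32 and -0.04 in WT muscles, a difference of 0.43 ± 0.22 (SE). Stat2 measured 0.71, 0.92 and 0.49 in KI and 0.48, 0.24 and 0.37 in WT, a difference of 0.34 ± 0.18. Mouse B was the highest muscle for both, and KI mouse C and WT mouse D were nearly level for Stat2. Oas1a measured -0.17, 0.60 and -0.43 in KI and -0.21, -1.16 and -0.35 in WT, a difference of 0.58 ± 0.36, and its groups overlapped. Muscle B, with the highest ISG mean (-0.17), stood apart in mammary genes and was also highest for the T cell list (-1.16, others -3.63 to -2.63) and the B cell list (-1.83, others -3.30 to -2.74). Muscles B and D were at 1.29 and 1.54 for the neutrophil list, where the other 4 were between -4.26 and -3.97. The part of these cells in the muscle values was not tested. Leaving out KI mouse B gave the members a median of 0.12, and it was 0.06 without WT mouse E, 0.31 without KI mouse C and 0.36 without both 14-month mice. The number with all KI muscles above all WT muscles was 0 in the deposited values, 4 to 6 without mouse A, D, E or F, 10 without KI mouse C and 12 without both 14-month mice. As above, fewer mice have to be apart when some are left out, and no share of all genes was computed. By role, the OAS genes had a median of 0.42 in muscle, the transcription factors 0.31 and the sensors 0.27, while the IFIT genes were at -0.05 and the ISG15 system at -0.08.

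Averaged over the 4 tissues of each mouse, the KI mean was higher for 32 members and lower for Herc6, with a median of 0.14 against 0.02 for all genes. No member and 0% of 17299 genes passed the threshold. All 3 KI mice exceeded all 3 WT mice for 8 members (Oas1a, Rtp4, Ddx58, Zbp1, Oas2, Irf9, Trim30a and Gbp3), where 4.79% of all genes did, and Oas1a and Rtp4 had an unadjusted p under 0.05, where 2.35% of all genes had one with KI higher. The number apart was 15 without KI mouse C, 15 without WT mouse F and 21 without both 14-month mice. Again fewer mice have to be apart there, and no share of all genes was computed. Oas1a averaged 0.87, 0.88 and 0.64 in KI mice and 0.46, 0.27 and 0.59 in WT mice, a difference of 0.36 ± 0.12 (SE). Rtp4 averaged 2.26, 1.99 and 1.97 in KI and 1.78, 1.52 and 1.88 in WT, a difference of 0.35 ± 0.13. Ddx58 averaged 0.77, 0.85 and 0.85 in KI and 0.64, 0.48 and 0.70 in WT, a difference of 0.22 ± 0.09. In all 3 genes WT mouse E was the lowest and WT mouse F the nearest to the KI mice. The mean over all 33 members was 0.38, 0.32 and 0.18 in KI mice and 0.13, 0.03 and 0.21 in WT mice, so KI mouse C lay below WT mouse F. Whether the genotype difference itself differed between tissues was tested with an F-test, which 0 members and 0% of 17299 genes passed (limma). At an unadjusted p under 0.05 it was passed by 0 members and 1.85% of all genes, so liver was not shown to differ from the other tissues.

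Within a genotype and tissue the members varied together from mouse to mouse. The mean correlation between members of their deviations from the group means was 0.42 over 24 arrays for the 30 members well above background throughout, against 0.036 among all 11620 such genes. Of the 435 member pairs, 407 correlated above 0, with a median of 0.44 and a range from -0.38 to 0.93. The 24 points come from 6 mice, and each deviation uses a mean of 3 arrays, so these values are descriptions. Within tissues the mean was 0.62 for liver, 0.56 for brain, 0.27 for muscle and 0.12 for heart, against 0.011, 0.041, 0.022 and 0.050 among all genes. Ifi44 (0.58), Gbp3 (0.56) and Irf9 (0.55) had the highest mean correlation with the other members, and Iigp1 (0.13) and Ifih1 (0.24) the lowest.

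**Figure D4:**
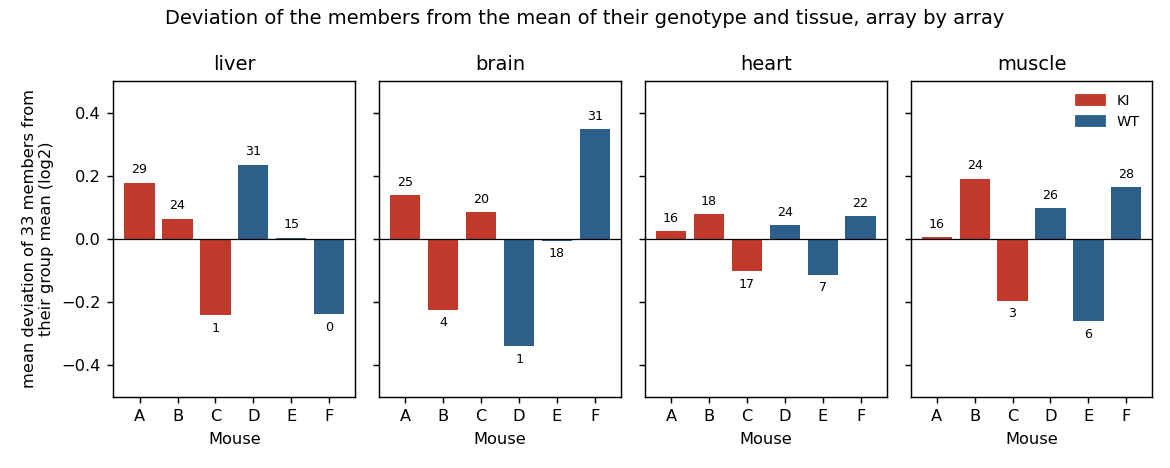
Mean deviation of the 33 members from their mean in the same genotype and tissue (log2), 1 bar per array, with the number of members above the group mean printed at each bar. Brain of WT mouse F deviates most, at 0.35 with 31 members above, and both 14-month livers, C and F, lie at -0.24.

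The members of an array tended to lie on the same side of their group. In liver, 29 of 33 members were above the group mean in KI mouse A and 31 in WT mouse D, against 1 in KI mouse C and 0 in WT mouse F. In brain, 31 were above it in WT mouse F and 1 in WT mouse D. The same mouse was not high throughout, since mouse F was lowest of its group in liver and highest in brain, heart and muscle. Mouse A was above its group mean in 4 of 4 tissues and mouse C in 1. The array farthest from its group was the brain of WT mouse F, at 0.35. There the largest deviation was that of Oas3, 1.32, with -5.98 against -7.42 and -8.48 in WT mice D and E, although no brain array was well above background for it. The next was Oasl1, at 0.93, with -1.94 against -3.26 and -3.41, and the lowest was Dhx58, at -0.25, with -2.93 against -2.91 and -2.22.

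Other genes of the pathway were followed through lists made from general knowledge, of which 96 of 102 names matched a probe. These lists were chosen with earlier results of these data known, so their counts are no independent check. The pathway genes were tested as the members were. No pathway gene passed the threshold in any tissue. Of 53 further interferon-induced genes, 49 were tested in liver, where 10 had an unadjusted p under 0.05 with KI higher and 0 with KI lower, beside 7.76% and 3.97% of all genes. These were Ifi27, Ifi27l2a, Ifi203, Ifi204, Gbp5, Phf11b, Phf11d, Slfn8, Tor3a and the chemokine Cxcl10, with differences between 0.35 and 0.82 and a smallest adjusted p of 0.358 (limma, Tor3a). In the other tissues the counts were 1 higher of 48 in brain (Ifi47), 2 higher (Ifi27l2a, Phf11b) and 1 lower (Tgtp1) of 51 in heart, and 2 higher of 48 in muscle (Slfn8, Nlrc5). Among all genes the shares higher were 0.429%, 0.904% and 0.407% in that order, and 0.697% were lower in heart. The median difference of this list was 0.16 (liver), 0.12 (brain), 0.07 (heart) and 0.14 (muscle).

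Of the receptors, none passed the threshold. In liver Ifnar1 differed by -0.35 ± 0.49 (SE), Ifnar2 by -0.18 ± 0.24 and Ifngr1, a chain of the interferon gamma receptor, by 0.20 ± 0.16. Irf1, a factor induced by interferon gamma, differed by 0.28 ± 0.12 with all KI livers above all WT livers, and Cxcl10 by 0.48 ± 0.18. No adjusted p among these was below 0.408 (limma). In the other tissues Irf1 differed by 0.14, 0.03 and 0.44 in brain, heart and muscle. Cxcl10 differed by 0.07 in brain, 0.43 in heart and -0.05 in muscle. For the receptors, Ifnar1 differed by 0.04, -0.13 and 0.12 in brain, heart and muscle, Ifnar2 by 0.05, 0.01 and 0.18, and Ifngr1 by 0.02, -0.12 and 0.19. Of 8 interferon genes with a probe, 3 were bright enough to be tested in liver, brain and heart and 1 in muscle, and 0 had an unadjusted p under 0.05 in a tissue. In the mean over tissues 1 of 4 interferon genes tested had one, with KI higher. Of 51 further induced genes 9 had one there, all with KI higher, beside 2.35% of all genes. Of 12 adaptors and kinases of nucleic acid sensing, the ligase Trim25 (0.41) and the kinase Ikbke (-0.54) had one in liver, and of 8 inhibitors the nuclease Trex1 did (0.28). Among all liver genes 7.76% had one with KI higher and 3.97% with KI lower. In lists this short, 1 gene in a direction is close to those shares.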

How the data were processed

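RNA of 4 tissues from 6 mice was hybridised to 24 Agilent one-colour arrays. The authors deposited scanner output (Agilent Feature Extraction 12.0.3.1, array design on mm9), whose processed signal is an intensity after background subtraction. The deposited value table of 33912 features was a score: each array's log signal as a z-score. Columns of other samples used: 0. Here log2 intensity, computed from the deposited signal, was reduced by each array's 75th percentile over non-control probes (269.5 to 2198 units before scaling). Outlier-flagged spots (121 to 347 per array) were dropped, leaving 573 missing probe values, and replicate spots were averaged. Of 55681 probes, 50.9% had a gene symbol through RefSeq, and the brightest probe stood for a gene. On each array, 49.4% to 68.4% of the 55681 probes were well above background. The number of arrays limits the precision. Tests used limma 3.58.1 in R 4.3.3, per tissue with 3 KI against 3 WT, on the mean of 4 tissues per mouse, and over 24 arrays for tissue and interaction. The computations were tested on simulated data. Mouse numbers in the labels identify the animal, so a number pairs tissues and never genotypes. Members, lists and tests were chosen with earlier results of these data known. Named with all values were members past the threshold or, where fewer than 3 passed, also the 3 of smallest unadjusted p, the 2 of widest tissue range in each role group of over 2, the extremes of the most deviating array, and Irf1, Ifnar1, Ifnar2, Ifngr1, Cxcl10 and Terf2ip, and 1 further gene is not reported here. Other members were named for groups that did not overlap or for the ends of a range, after their values were seen. Alternatives covered scaling, normexp (offset 50), quantile and z-score values, probe and filter rules, array weights, blocks and arrays left out.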

Additional observations from a re-analysis of the deposited data

Results flagged for a closer look

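Among 142 groups of 6 arrays of a tissue (both genotypes together), 11 held an array far from the other 5 by Dixon's test. Chance gives about 1 in 20 for groups not picked by their values. The groups were every member and the member mean in each tissue, and some marker lists in hand-picked tissues. Those lists include the ones described above as standing apart, so the 11 cannot be set against the chance rate. Irf7 was at -1.62 in the heart of mouse B (others -2.41 to -2.12). Trim30a was at 0.072 in the heart of mouse C (others -0.18 to -0.11). Ifi35 was at 2.49 in the liver of mouse F (others 2.79 to 2.95). Gbp3 was at 0.41 in the muscle of mouse E (others 0.57 to 0.64). In the muscle of mouse B, Bst2 was at 2.51 (others 1.68 to 1.96), Zbp1 at -1.71 (others -2.74 to -2.36) and Oas3, not well above background, at -5.46 (others -6.23 to -5.95). That array also stood apart in the mammary epithelium list, at -1.75 (others -5.23 to -4.78). In mouse C, the brain was at 4.90 for the hepatocyte list (others -2.86 to -1.17) and at -0.51 for the macrophage list (others -1.93 to -1.69), and the liver was at 1.33 for the skeletal fibre list (others -5.14 to -4.44). The part of other tissue in these arrays was not tested.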

How the results depend on the processing

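Under every setting run, 0 members passed the threshold in a genotype comparison or in the interaction, and 33 of 33 passed the tissue F-test. With arrays left out one at a time, the median KI minus WT difference ranged from 0.13 to 0.40 in liver, from -0.075 to 0.25 in brain, from -0.0019 to 0.081 in heart, from 0.06 to 0.31 in muscle and from 0.11 to 0.20 in the mean of 4 tissues. Under the other settings it ranged from 0.22 to 0.38, 0.07 to 0.25, 0.02 to 0.09, 0.03 to 0.36 and 0.11 to 0.22, where normexp moved the liver median of all genes to 0.17. The mean of all probes turned Ifih1 in liver to -0.21. Leaving out both 14-month mice and age as a block were added after seeing the data. The number of members lower in liver than brain fell from 2 to 1 with quantile, normexp, and normexp with quantile, and was 1 to 2 with arrays left out (1 without liver of KI mouse C). Members lower in heart than muscle numbered 2 with normexp, and those higher in brain than muscle 8 on z-scores. The liver minus brain median was 2.76 with normexp, 2.48 with normexp and quantile and 2.62 on z-scores. That of liver minus muscle was 1.74 and 1.63 with normexp, without and with quantile, and 1.85 to 2.18 with arrays left out (1.85 without muscle of WT mouse E). That of liver minus heart was 0.78 with normexp and quantile and 1.32 with all probes, that of brain minus heart -1.63 with normexp and -1.50 on z-scores, and that of brain minus muscle -0.75 with normexp and quantile and -0.44 on z-scores. The cause was not tested. With the mouse as a replicate block across tissues (consensus correlation -0.0021) the liver median stayed at 0.29 and 0 calls changed. Dim signal limits Oas3 in every tissue, least in liver, and Herc6 and Irf7 in muscle.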
